A study of Mus musculus with 6 samples.

Results

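The genes examined were the mitochondrial ribosomal proteins, taken as every protein-coding gene of the deposited table whose symbol is *Mrpl* or *Mrps* followed by a digit. The rule found 77 genes, 48 *Mrpl* and 29 *Mrps*, among 20066 genes in the table, of which 14257 were protein coding, and it used no measured value. RNA had been sequenced from cardiomyocytes (CMs) of C57BL/6 mice of age P0-1 that were kept in culture for 96 h either in cell-permeable αKG, an intermediate of the Krebs cycle, or in the solvent DMSO, with 3 libraries per group. The labels give 100 µM αKG, and the study's methods give another concentration. All 6 libraries shared strain, age and culture, and no group carried an engineered allele. The labels do not say whether libraries came from separate isolations, so the p-values measure the spread between these samples, which may be technical. Values are read counts that the authors had scaled with size factors and given as whole numbers, called normalized counts here.

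Mitochondria make a small set of proteins themselves, nearly all of them core subunits of the respiratory chain and ATP synthase, and they do so on a ribosome of their own. Its ribosomal RNAs are transcribed from mitochondrial DNA, whereas its proteins come from nuclear genes, are made in the cytosol and are imported. The small subunit reads the mRNA and the large subunit joins the amino acids. Some of the proteins have a bacterial counterpart and others are specific to mitochondria. The heart, with its dense mitochondria, depends on this translation system for its ATP supply.

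αKG replicate 3 stood apart from its group. Over all genes its log2 values correlated at 0.962 and 0.963 with αKG replicates 1 and 2 and at 0.977 to 0.980 with the DMSO libraries, so counts, medians and most genes whose call it changes are given with and without it. Estimated reads in genes were between 3725840 and 4427187 per library. DMSO replicates 2 and 3 differed by about sampling noise over 13080 genes (chi-square of 1.02 per gene, against 1.43 and 1.93 for the other DMSO pairs), and with both averaged into 1 sample no member passed the test. The 10 cardiomyocyte markers summed to between 78512 and 83095 normalized counts in the DMSO libraries and αKG replicate 3, and to 111805 and 114816 in αKG replicates 1 and 2. *Ttn* made up most of these sums, and the other 9 markers summed to between 26943 and 27526 in the DMSO libraries and αKG replicate 3 and to 31499 and 30680 in αKG replicates 1 and 2.

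The mitochondrial ribosomal protein genes as a group had lower normalized counts in αKG-treated CMs. Their sum was 14119, 13936 and 14484 in the DMSO libraries, in the order of replicate number, against 10656, 11471 and 13651 for αKG, or 14179.7 ± 279.0 against 11926.0 ± 1548.5 (SD, n = 3 each). The 3 sums of the αKG group all lay below the 3 of the DMSO group, and αKG replicate 3 was close to them. As a share of all normalized counts the members made up between 0.340% and 0.355% in DMSO libraries and 0.256%, 0.275% and 0.331% in αKG replicates 1 to 3. In a bulk culture, fewer cells of a type and less RNA per cell cannot be told apart.

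Gene by gene, 71 of the 77 members had a negative log2 fold change and 6 a positive one. A negative one was found for 47.1% of all rows and 59.0% of other protein-coding genes within the members' range of mean values. The median over the members was -0.32 on the log2 scale, a difference of -19.6%, beside 0.04 over all rows and -0.08 over the 7424 other protein-coding genes within the members' range of mean values. No member passed an adjusted p of 0.05 in limma with all 6 libraries, where 759 of 20066 genes did (3.78%). The smallest limma adjusted p of a member was 0.0527. At an unadjusted p under 0.05, 36 members were lower in αKG and 1 was higher, where 12.4% and 15.7% of all genes were. For 25 members every αKG library lay below every DMSO library, and for 2, *Mrpl33* and *Mrps10*, every αKG library lay above, against 14.6% and 13.7% of all genes. Shares of all genes, here and below, include non-coding rows. Of the 7424 protein-coding genes in the members' range, 1422 were lower and 1103 higher at an unadjusted p under 0.05 in limma. Without overlap, 1675 of them lay below DMSO and 1048 above. Their shares of lower genes were thus larger than those over all genes.

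**Figure D1:**
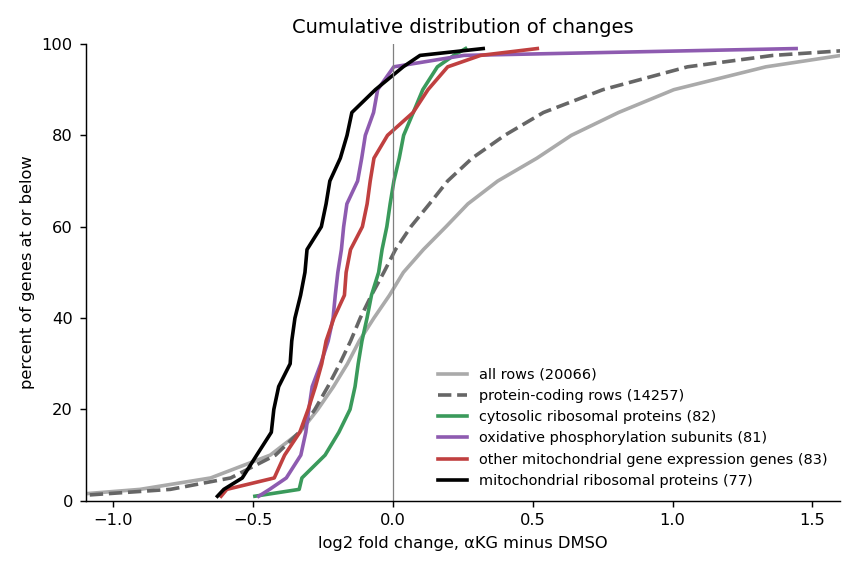
Lines give the percent of genes (y axis) at or below a log2 fold change, αKG minus DMSO (x axis), for 6 gene sets, with the number of genes in the key. The line of the 77 mitochondrial ribosomal proteins crosses 50 percent at -0.32, left of the oxidative phosphorylation subunits at -0.20 and of all rows at 0.04.

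How far the 3 αKG libraries differed among themselves was read from each member's distance to its DMSO mean. The median distance was -0.52 in αKG replicate 1, -0.35 in αKG replicate 2 and -0.07 in αKG replicate 3 (log2 scale), and between -0.03 and 0.04 in the DMSO libraries. In αKG replicates 1 and 2, 60 members lay below every DMSO library in both. For 25 of these αKG replicate 3 did so as well, and for 35 it lay within or above the DMSO range. αKG replicate 1 held the lowest αKG value in 55 members and αKG replicate 3 the highest in 60. These patterns were not counted over all genes, so the counts describe the members alone and show no excess over other genes.

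**Figure D2:**
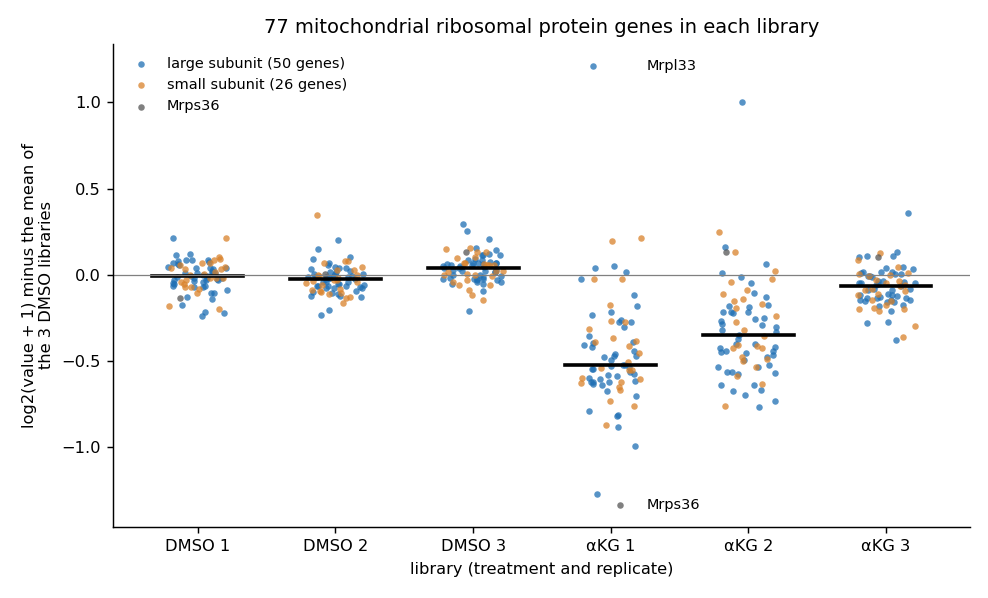
Each point is 1 of the 77 mitochondrial ribosomal protein genes in 1 library (x axis), plotted as its log2(value + 1) minus its mean over the 3 DMSO libraries (y axis, log2 units), with black bars at the median and colours for the ribosomal subunit. The medians were -0.52, -0.35 and -0.07 in αKG replicates 1 to 3, and *Mrpl33* lay far above the other genes in αKG replicates 1 and 2.

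Without αKG replicate 3 the test gave a different count. In that fit 50 members fell and 1, *Mrpl33*, rose at an adjusted p under 0.05, with a median of -0.44 as log2 fold change, or -26.4%. The same fit called 17.9% of all genes lower and 19.3% higher, so the members' share of falls, 50 of 77, was above the background and their share of rises below it. Of the 7424 protein-coding genes in the members' range of mean values, it called 2050 lower and 1320 higher. This library was left out because its values stood apart, so the count without it is not independent of the values.

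By subunit, the large subunit held 50 members, with 47 lower in αKG and a median log2 fold change of -0.32, and the small subunit 26, with 23 lower and a median of -0.31. *Mrps30* and *Mrps18a* were counted in the large subunit, where their proteins sit despite the gene names. By origin, the 45 members with a bacterial counterpart had a median of -0.31 and the 31 that are specific to mitochondria one of -0.34. The differences between these classes were not tested. Among large-subunit members with a bacterial counterpart, 27 of 29 were lower and 10 lay below DMSO without overlap, which 14.6% of all genes did. In the mitochondria-specific part of the large subunit, 20 of 21 were lower, 7 of them without overlap.

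In the small subunit, 15 of 16 members with a bacterial counterpart were lower, 6 of them without overlap. Of the 10 mitochondria-specific members 8 were lower, 2 of them without overlap. Among all genes 14.6% lay below DMSO without overlap, and among the protein-coding genes in the members' range of mean values 1675 of 7424. Without αKG replicate 3, 35 of 50 large-subunit and 15 of 26 small-subunit members fell in limma, beside 17.9% of all genes.

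**Figure D3:**
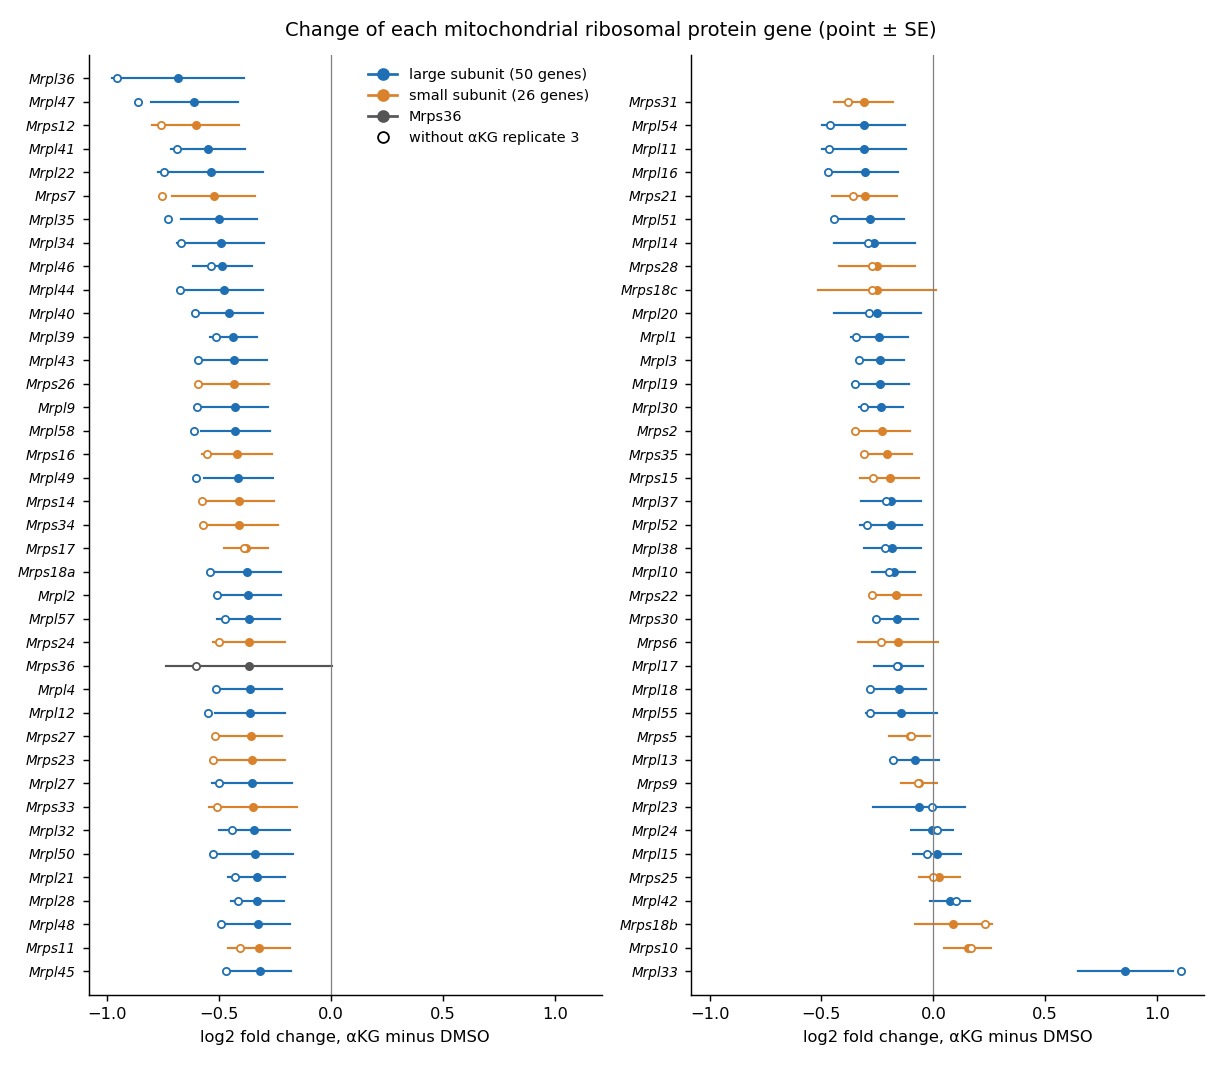
Filled points show the log2 fold change, αKG minus DMSO (x axis), of each of the 77 genes (y axis, ordered by change) with its SE, open points the value without αKG replicate 3, and colours the subunit. The filled points of 71 genes lie below 0, from -0.68 for *Mrpl36* upward, and *Mrpl33* is alone at 0.86.

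Of the 10 members of smallest p, a choice made after the values were seen, the 9 that were lower in αKG are described first, and *Mrpl33*, which was higher, after them. *Mrpl39* (ENSMUSG00000022889, GRCm38 chr16:84717576-84735742, minus strand) encodes a mitochondria-specific protein of the large subunit. The DMSO libraries held 285, 270 and 262 normalized counts, against 182, 199 and 224 for αKG, each time in the order of replicate number. All αKG libraries were below all DMSO libraries, αKG replicate 3 included. Its log2 fold change was -0.44 ± 0.11 (SE, n = 3 each), with a limma adjusted p of 0.0527, and over 19 other settings that adjusted p ranged from 0.00363 to 0.257 and passed the threshold in 7.

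*Mrps17*, a small-subunit member with a bacterial counterpart, had a narrow spread within both groups. It read 200, 203 and 206 in DMSO and 157, 153 and 158 in αKG, so that αKG replicate 3 lay with the other αKG libraries. The log2 fold change was -0.38 ± 0.10 and stayed at -0.39 without αKG replicate 3, with limma adjusted p-values of 0.0609 and 0.00652. *Mrpl46*, a mitochondria-specific large-subunit member, likewise had all αKG values (82, 92 and 97) below all DMSO values (123, 135 and 122). The difference was -0.49 ± 0.13 on the log2 scale (limma adjusted p = 0.0665), and -0.54 without αKG replicate 3 (adjusted p = 0.00904).

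In the members with larger differences, αKG replicate 3 lay nearer to DMSO. *Mrpl47*, whose protein sits near the exit of the peptide tunnel, read 239, 252 and 264 in DMSO and 126, 151 and 233 in αKG. αKG replicate 3 was just below the lowest DMSO library, and the log2 fold change went from -0.61 ± 0.19 (limma adjusted p = 0.0907) to -0.86 without it (adjusted p = 0.00182). *Mrps12*, whose protein lies at the decoding site of the small subunit, read 65, 68 and 78 in DMSO and 41, 41 and 57 in αKG. On the log2 scale αKG minus DMSO was -0.60 ± 0.19 (limma adjusted p = 0.0931), and -0.76 without αKG replicate 3 (adjusted p = 0.00735). The groups did not overlap for either gene.

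*Mrpl41* and *Mrpl40*, mitochondria-specific large-subunit members, gave the same order of αKG libraries. *Mrpl41* read 138, 139 and 152 in DMSO and 77, 101 and 118 in αKG, with a log2 fold change of -0.55 ± 0.17. *Mrpl40* read 214, 207 and 226 in DMSO and 124, 161 and 193 in αKG (-0.46 ± 0.15). Neither passed the test (limma adjusted p = 0.0823 and 0.103), and in both all αKG values were below the DMSO values. Their log2 fold changes without αKG replicate 3 were -0.69 and -0.61 (limma adjusted p = 0.00968 and 0.0107).

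*Mrpl35*, with a bacterial counterpart, and *Mrpl43*, without, were the last of the 9. *Mrpl35* read 357, 345 and 362 in DMSO and 201, 227 and 343 in αKG, so that αKG replicate 3 nearly reached the DMSO libraries. Its log2 fold change of -0.50 ± 0.17 (limma adjusted p = 0.104) became -0.73 without that library (adjusted p = 0.0012). *Mrpl43* read 181, 179 and 204 in DMSO and 122, 126 and 173 in αKG. The difference was -0.44 ± 0.15 on the log2 scale (limma adjusted p = 0.107), and -0.59 without αKG replicate 3 (adjusted p = 0.00407).

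*Mrpl22*, which encodes a protein lining the peptide tunnel, was among the 4 lowest log2 fold changes of members with a mean of at least 50, together with *Mrpl47*, *Mrps12* and *Mrpl41*. It read 55, 61 and 79 in DMSO and 36, 40 and 59 in αKG, so the groups overlapped in αKG replicate 3, and its log2 fold change was -0.54 ± 0.23 (limma adjusted p = 0.171), or -0.74 without that library (adjusted p = 0.0227). The lowest log2 fold change of all 77 members was that of *Mrpl36*, at -0.68 ± 0.30, on few counts (55, 41 and 47 in DMSO and 19, 30 and 43 in αKG). The value without αKG replicate 3 was -0.96 (limma adjusted p = 0.0237).

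The largest positive difference belonged to *Mrpl33* (ENSMUSG00000106918, GRCm38 chr5:31596935-31664384, plus strand), a large-subunit member with a bacterial counterpart. It read 70, 88 and 81 in DMSO and 185, 160 and 102 in αKG. Every αKG library was above every DMSO library, and αKG replicate 3 was again the nearest to DMSO. Its log2 fold change was 0.86 ± 0.21 with a limma adjusted p of 0.0547, and 1.11 with an adjusted p of 0.00197 without αKG replicate 3. The deposited gene model starts at -17016 bases from the RefSeq start, has 7326 bases of exon, and overlaps *Rbks* on the other strand and *Gm43809* on the same strand. Per kilobase of exon its mean level was 15.6 normalized counts, the second lowest of the members. Which part of this model the reads came from was not tested.

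The other members with higher means in αKG had small differences. *Mrps10* read 172, 154 and 166 in DMSO and 188, 180 and 179 in αKG, all above DMSO. On the log2 scale αKG minus DMSO was 0.15 ± 0.10 (limma adjusted p = 0.352). *Mrpl42* had 267, 280 and 292 in DMSO and 289, 312 and 282 in αKG (0.07 ± 0.09), with overlapping groups, and its difference changed sign under a correction for GC and length. *Mrps25* and *Mrpl15* lay at 0.03 ± 0.09 and 0.02 ± 0.11 on the log2 scale, and the same correction turned them to -0.06 and -0.27. Both lay just below 0 without αKG replicate 3.

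The 3 genes named *Mrps18* are related to a single bacterial gene, and their proteins occupy different places on the ribosome. *Mrps18a*, in the large subunit, read 152, 159 and 168 in DMSO and 109, 110 and 154 in αKG. The difference was -0.38 ± 0.15 on the log2 scale (limma adjusted p = 0.147), and -0.54 without αKG replicate 3 (adjusted p = 0.00458). *Mrps18b*, at a mitochondria-specific place in the small subunit, read 67, 66 and 66 in DMSO and 77, 79 and 58 in αKG (0.09 ± 0.17), a sign that quantile normalization turned. *Mrps18c*, at the place of the bacterial protein, had the lowest mean of all 77 members, with 25, 37 and 26 in DMSO and 20, 28 and 25 in αKG (-0.25 ± 0.26). None of the 3 passed the test with all libraries, and in each the αKG and DMSO libraries overlapped.

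*Mrps36* (ENSMUSG00000061474, GRCm38 chr13:100735955-100744659, minus strand) carries a ribosomal name, but its protein is known as a subunit of the αKG dehydrogenase complex, the Krebs cycle enzyme that consumes αKG. It read 38, 42 and 46 in DMSO and 16, 46 and 45 in αKG. The low value was in αKG replicate 1, and the other αKG libraries lay within the DMSO range. Its log2 fold change of -0.37 ± 0.37 (limma adjusted p = 0.537) turned to 0.12 without αKG replicate 1.

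*Mrpl12*, whose protein forms the stalk that binds elongation factors, read 244, 220 and 226 in DMSO and 148, 166 and 232 in αKG. αKG replicate 3 lay within the DMSO range, and the log2 fold change was -0.36 ± 0.16 (limma adjusted p = 0.170) with it and -0.55 (adjusted p = 0.00476) without it. The members of highest mean, *Mrpl18*, *Mrps30* and *Mrpl3*, had log2 fold changes of -0.15 ± 0.12, -0.16 ± 0.10 and -0.24 ± 0.11. All of these 3 fell in limma without αKG replicate 3, at -0.28, -0.26 and -0.33 (adjusted p = 0.0284, 0.0106 and 0.0175). *Mrpl18* read 399, 400 and 386 in DMSO and 300, 350 and 425 in αKG. Its αKG libraries lay on both sides of the DMSO range. Per kilobase of exon, *Mrpl18* was also the highest member, at a mean level of 269 normalized counts, and *Mrpl23* the lowest, at 8.19.

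Sequences before the start site are shown for 4 of the 8 members that had the 4 highest and 4 lowest log2 fold changes among those with a mean of at least 50, so that a reader can see what lies there in genes with large differences. They are the longest stretches within 250 bases of the RefSeq start (GRCm38.p6) that hold no annotated exon, where at least 150 bases remained. Capitals mark a match to CCGGAAG, a motif bound by ETS factors such as GABP.
*Mrpl33*, the gene with higher values, is given at chr5:31613701-31613938 on the plus strand, with 43.3% G or C and 3 CpG.
Mrpl33: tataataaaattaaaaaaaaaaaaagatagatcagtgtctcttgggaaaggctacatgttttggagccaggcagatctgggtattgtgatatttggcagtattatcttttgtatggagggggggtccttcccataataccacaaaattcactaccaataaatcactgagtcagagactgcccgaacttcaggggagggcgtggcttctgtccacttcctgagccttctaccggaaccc
*Mrps12*, at chr7:28741822-28741991 on the minus strand, is given for the 170 bases that separate its start from the exons of *Sars2* on the other strand.
Mrps12: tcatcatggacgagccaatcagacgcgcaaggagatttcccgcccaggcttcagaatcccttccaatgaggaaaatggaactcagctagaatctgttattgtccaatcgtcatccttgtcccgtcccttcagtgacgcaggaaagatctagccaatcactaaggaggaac
*Mrpl41*, at chr2:24975099-24975348 on the minus strand, has 68.8% G or C and 27 CpG.
Mrpl41: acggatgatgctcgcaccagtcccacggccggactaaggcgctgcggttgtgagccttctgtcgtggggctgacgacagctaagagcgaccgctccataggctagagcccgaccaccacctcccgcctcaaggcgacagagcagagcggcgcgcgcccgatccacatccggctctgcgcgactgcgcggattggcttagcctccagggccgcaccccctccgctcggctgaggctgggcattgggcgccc
*Mrpl22*, at chr11:58171414-58171660 on the plus strand, holds the only motif match in these 4 stretches, which begins 53 bases before the start.
Mrpl22: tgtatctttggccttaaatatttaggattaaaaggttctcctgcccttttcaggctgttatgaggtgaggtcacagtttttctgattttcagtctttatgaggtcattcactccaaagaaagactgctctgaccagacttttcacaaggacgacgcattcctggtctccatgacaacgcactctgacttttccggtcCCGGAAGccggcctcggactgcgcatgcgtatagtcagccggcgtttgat

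Across the members, 4 motifs known from promoters of nuclear genes for mitochondrial proteins were searched on both strands of 300-base windows, from 250 bases before the RefSeq start to 50 after it. RefSeq windows were found for 68 of 77 members, 74 windows in all, and 32851 windows of all genes were searched alike. The ETS motif CCGGAAG was in 33.8% of member windows and 8.86% of all windows. AAGATGGC, bound by YY1, was in 16.2% and 2.75%, and GCGC, 2 bases of any kind and GCGC, bound by NRF1, in 18.9% and 6.23%. TCAAGGTCA, bound by estrogen-related receptors, was in 0 of 74 member windows and 0.423% of all. Among windows of protein-coding genes in the table the shares were 15.8%, 3.91%, 12.1% and 0.258% in the same order. None of the 4 motifs contains another. Members with and without a motif had median log2 fold changes of -0.35 and -0.32 for ETS, -0.37 and -0.31 for YY1 and -0.34 and -0.32 for NRF1. These medians without αKG replicate 3 were -0.49 and -0.42, -0.53 and -0.42, and -0.45 and -0.46.

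*Gabpa*, *Yy1* and *Nrf1* had lower values in αKG-treated CMs, without passing the test with all libraries. Whether these factors or their motifs bear on the members' values was not tested. *Gabpa*, the DNA-binding subunit of GABP, read 724, 752 and 740 in DMSO and 523, 590 and 708 in αKG, with no overlap. On the log2 scale αKG minus DMSO was -0.29 ± 0.10 (limma adjusted p = 0.112). *Yy1* had a log2 fold change of -0.28 ± 0.09 and *Nrf1* of -0.23 ± 0.10, both with all αKG libraries below DMSO (limma adjusted p = 0.0869 and 0.160). Without αKG replicate 3, *Gabpa*, *Yy1* and *Nrf1* fell in limma, at -0.41, -0.34 and -0.29 (adjusted p = 0.00413, 0.00907 and 0.0267). *Ppargc1a*, a coactivator of mitochondrial biogenesis, had the smallest p of the 9 listed regulators. It read 1611, 1615 and 1677 in DMSO and 1205, 1199 and 1524 in αKG, with a log2 fold change at -0.33 ± 0.09 (limma adjusted p = 0.0689, and 0.000719 without αKG replicate 3). Of the 9 regulators 8 were lower, 6 of them without overlap (14.6% of all genes). *Myc* was the exception at 0.72 ± 0.25 (limma adjusted p = 0.107), with 41, 57 and 58 in DMSO and 92, 112 and 60 in αKG, and 0.97 without αKG replicate 3 (adjusted p = 0.0104).

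The genes that build the mitochondrial ribosome and work with it were taken from 6 lists of 83 genes in all, these regulators included. Of the 83, 67 were lower in αKG and 16 higher, with a median of -0.17 as log2 fold change, and none passed the test. Of all genes 47.1% were lower. Without overlap were 26 lower and 5 higher genes, beside 14.6% and 13.7% of all genes. In limma without αKG replicate 3, 35 fell and 3 rose, beside 17.9% and 19.3% of all genes. The 5 ribosomal subunits that go by other names had a median of -0.17. Among them *Dap3*, the GTP-binding protein of the small subunit, read 350, 341 and 382 in DMSO and 237, 282 and 331 in αKG, all below DMSO. The difference was -0.35 ± 0.12 on the log2 scale (limma adjusted p = 0.114). *Dap3* fell in limma without αKG replicate 3, at -0.47 (adjusted p = 0.0110).

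The 23 genes for assembly of the ribosome and modification of its RNA had a median of -0.20, with 20 lower. *Ddx28*, a helicase for assembly of the large subunit, had the smallest p, with 86, 69 and 96 in DMSO and 46, 47 and 64 in αKG and no overlap. On the log2 scale αKG minus DMSO was -0.67 ± 0.20 (limma adjusted p = 0.0812). The 15 translation factors had a median of -0.17, with 12 lower. *Mtif3*, an initiation factor, read 220, 211 and 202 in DMSO and 152, 168 and 170 in αKG, all below DMSO. The difference was -0.37 ± 0.10 on the log2 scale (limma adjusted p = 0.0725). *Ddx28* and *Mtif3* fell in limma without αKG replicate 3, at -0.82 and -0.40 (adjusted p = 0.0107 and 0.0112). *Tufm*, the elongation factor that carries aminoacyl-tRNA to the ribosome, was at -0.08 ± 0.10, with overlapping groups.

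The 20 genes for aminoacyl-tRNA synthesis were divided, with 13 lower, 7 higher and a median of -0.14. *Ears2*, the mitochondrial glutamyl-tRNA synthetase, had 138, 129 and 119 in DMSO and 165, 199 and 173 in αKG, all above DMSO. On the log2 scale αKG minus DMSO was 0.47 ± 0.12 (limma adjusted p = 0.0609). The 11 genes for mitochondrial DNA and its transcription had a median of -0.11. *Polrmt*, the mitochondrial RNA polymerase, read 369, 340 and 364 in DMSO and 287, 218 and 304 in αKG, with no overlap. The difference was -0.42 ± 0.13 on the log2 scale (limma adjusted p = 0.0831). *Ears2* rose and *Polrmt* fell in limma without αKG replicate 3, at 0.49 and -0.51 (adjusted p = 0.0172 and 0.0174). *Tfam*, which packages mitochondrial DNA and activates its transcription, read 297, 316 and 318 in DMSO and 245, 281 and 372 in αKG, on both sides of DMSO (-0.07 ± 0.14, turning to 0.06 without αKG replicate 1).

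The members were set beside the cytosolic ribosomal proteins, which make up the other ribosome of these cells, and beside the nuclear-encoded subunits of oxidative phosphorylation, whose partner subunits the mitochondrial ribosome makes. Of 82 cytosolic ribosomal protein genes 57 were lower, with a median of -0.05 as log2 fold change, and 11 lay below DMSO without overlap. That was beside 14.6% of all genes and 1675 of the 7424 protein-coding genes in the members' range of mean values. Of 81 oxidative phosphorylation subunits 75 were lower, with a median of -0.20, and 39 lay below DMSO without overlap, beside 25 of the 77 members. Without αKG replicate 3 the medians were -0.08 for the cytosolic and -0.27 for the oxidative phosphorylation genes, beside -0.44 for the members. In that fit 2 of 82 cytosolic genes, 48 of 81 oxidative phosphorylation genes and 50 of 77 members fell, beside 17.9% of all genes. In the same order 0, 2 and 1 rose, beside 19.3% of all genes. In αKG replicate 1 the median distance to DMSO was -0.14 for cytosolic ribosomal proteins, -0.31 for oxidative phosphorylation subunits and -0.52 for the mitochondrial ribosomal proteins, and in αKG replicate 2 it was 0.02, -0.20 and -0.35. The differences between these gene sets were not tested, since the genes of a set share libraries and are not replicates.

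**Figure D4:**
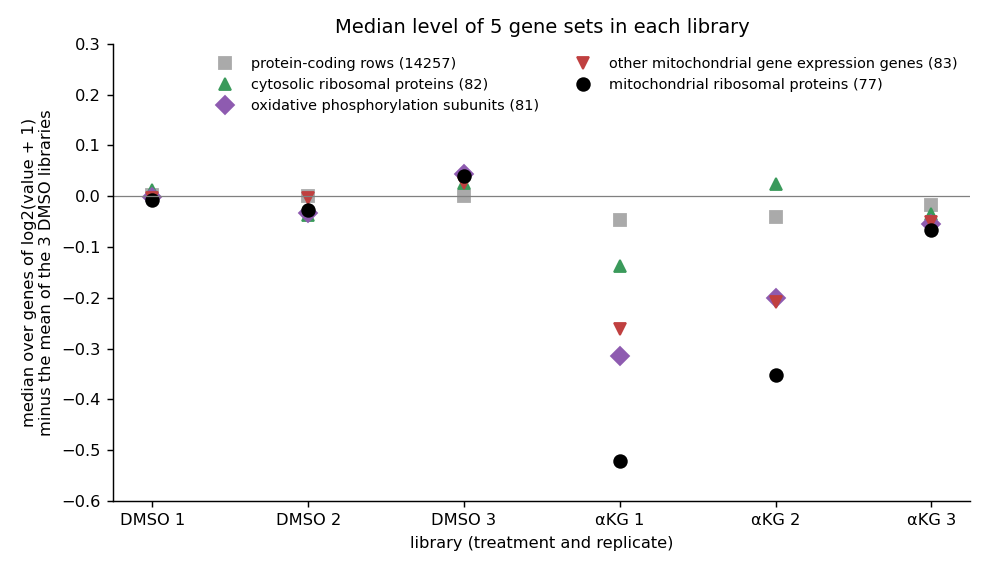
Points give, for each library (x axis), the median over the genes of a set of log2(value + 1) minus the DMSO mean (y axis, log2 units), with the number of genes in the key. In αKG replicates 1 and 2 the mitochondrial ribosomal proteins were the lowest of the 5 sets drawn, at -0.52 and -0.35, and in αKG replicate 3 they were at -0.07.

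Gene length moved with the values and is given beside them. Over 4 bins of summed exon length the median log2 fold change of the members was -0.35 below 1500 bases (19 genes), -0.35 from 1500 to 3000 (27 genes), -0.31 from 3000 to 6000 (19 genes) and -0.13 from 6000 to 10000 (12 genes). Protein-coding rows in the same bins had medians of -0.23, -0.15, -0.09 and -0.01. Without αKG replicate 3 the members' medians were -0.50, -0.51, -0.44 and -0.17, and those of the coding rows -0.32, -0.20, -0.11 and -0.01. In each of the 4 bins the members' median was below that of the coding rows. Pearson's r between log2 length and log2 fold change over the 77 members was 0.43 and Spearman's rho 0.38, as a description over genes that share the same libraries. With a correction for GC and length the r was 0.22, and 2 of 77 members, *Mrpl39* and *Mrps17*, fell at an adjusted p under 0.05. That fit called 6.09% of all rows in either direction. The part of length in the members' values was not tested otherwise.

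**Figure D5:**
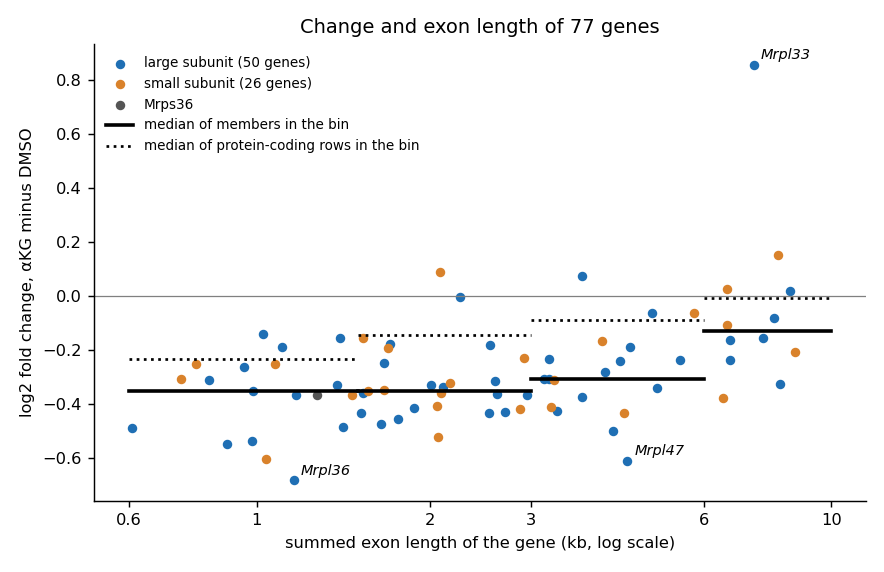
Points show the log2 fold change, αKG minus DMSO (y axis), of each member against its summed exon length (x axis, kb, log scale), coloured by subunit, with solid bars for the median of members in 4 length bins and dotted bars for protein-coding rows. The solid bars lie below the dotted ones in all 4 bins, at -0.35, -0.35, -0.31 and -0.13.

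Many members lie close to other genes, and the authors left out reads of more than 1 gene, while the use of strand in counting is not stated. Of the 77 members 41 overlapped another annotated gene, 25 of them a protein-coding gene, and their values are less certain. The 36 that overlapped none had a median of -0.31 as log2 fold change. Of these, 34 were lower and 14 lower without overlap between the groups, beside 47.1% and 14.6% of all genes. For 33 members a protein-coding gene on the opposite strand started within 1000 bases and ran the other way, and 32 of these neighbours were in the table. Of the neighbours 25 were lower, 11 without overlap between groups, with a median of -0.27 beside -0.34 for their members.

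Some of these pairs join members to related functions. *Mrps11* and *Mrpl46* start from the same stretch of chromosome 7 and overlap each other, and their log2 fold changes were -0.32 ± 0.14 and -0.49 ± 0.13. *Mrps12* shares its upstream bases, printed above, with *Sars2*, the mitochondrial seryl-tRNA synthetase, which read 89, 76 and 70 in DMSO and 42, 44 and 74 in αKG (-0.59 ± 0.23). *Mrpl43* overlaps *Twnk*, the helicase of mitochondrial DNA (-0.30 ± 0.11), and *Mrpl36* overlaps *Ndufs6*, a subunit of respiratory complex I (-0.30). Other neighbours differed in sign from their members. *Ska3* and *Eme1*, next to *Mrpl57* and *Mrpl27*, had log2 fold changes of 0.84 and 0.89, while *Mrpl57* and *Mrpl27* were at -0.37 and -0.35. These pairs were picked after their values were seen.

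Markers of other cell types moved in the same libraries. Of 8 endothelial markers 6 fell in limma with all 6 libraries, and the 8 summed to between 1974 and 2080 in DMSO and between 1378 and 1490 in αKG. The other endothelial markers, *Tek* and *Flt1*, lay at 0.38 and 0.27 on the log2 scale, and both rose in limma without αKG replicate 3, at 0.70 and 0.54 (adjusted p = 0.0109 and 0.000816). The 8 fibroblast markers summed to between 3211 and 3393 in DMSO, 7183 and 7012 in αKG replicates 1 and 2, and 3265 in αKG replicate 3. The collagen genes *Col1a1*, *Col1a2* and *Col3a1* made up most of these sums. *Lum* and *Tcf21*, of the same list, lay at 0.04 and -0.03 on the log2 scale without αKG replicate 3. The 5 epicardial markers summed to between 109 and 125 in DMSO, 503 and 502 in αKG replicates 1 and 2, and 73 in αKG replicate 3. Of these last 2 lists none passed the test with all libraries, and 6 and 5 genes rose without αKG replicate 3. Fibroblast and epicardial sums were thus high in the libraries in which the members were low. Of 6 mural markers 4 were higher and 2 lower in αKG, and 1, *Cspg4*, rose in limma with all libraries. Without αKG replicate 3, 2 rose and 1 fell, beside 19.3% and 17.9% of all genes. The mural sums, from 4064 to 4147 in DMSO and 4093 to 4546 in αKG, thus join genes of both directions. Of 6 macrophage markers 3 were listed, which summed to between 13 and 22 in DMSO and 9 and 31 in αKG, and *Adgre1*, *Ptprc* and *C1qa* were not among the rows used. The cardiomyocyte markers had a median of 0.08 as log2 fold change, with 8 higher, 2 lower and 0 of 10 past the test in limma. At an unadjusted p under 0.05 there were 4, 3 higher and 1 lower, beside 15.7% and 12.4% of all genes. In limma without αKG replicate 3, 5 of the 10 rose and 1 fell, beside 19.3% and 17.9% of all genes.

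Composition of the libraries moved with the same split. Rows labelled TEC, transcripts yet to be established experimentally, took between 0.417% and 0.485% of all counts in DMSO and 1.07%, 1.02% and 0.527% in αKG replicates 1 to 3. The share of *Ttn*, the gene of the giant sarcomere protein titin, was between 1.27% and 1.32% in DMSO and 1.93%, 2.02% and 1.35% in αKG replicates 1 to 3. As a share of protein-coding counts the members made up between 0.346% and 0.362% in DMSO and 0.264%, 0.283% and 0.338% in αKG replicates 1 to 3, the same order as over all rows. Scaled to the same protein-coding total, 1 of 77 members, *Mrpl39*, fell at an adjusted p under 0.05, a setting added after seeing the data. With that scaling 4.33% of all rows were called in either direction. The part of cell types and composition in the members' values was not tested.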

How the data were processed

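RNA-seq was available for 3 DMSO and 3 αKG libraries of CMs, grouped by their labels. Per the labels and the study's methods, the authors used FastQC 0.11.8, Trimmomatic 0.39, STAR 2.7.10a (mm10, GRCm38.p5), Picard 2.27.1, featureCounts 2.0.3 and DESeq2 1.30.1. The deposited values are a score, read counts scaled with size factors and given as whole numbers, so count models were not used as the main test. What 1 read is worth (0.926 to 1.12) was estimated from whole numbers skipped or doubled among low values. On simulated factors 16 of 20 estimates fell within 0.1%, and depths are estimates.

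All 20066 rows were fitted in limma 3.58.1 (R 4.3.3) with a variance trend on log2(value + 1), without a filter, and p-values were adjusted by Benjamini-Hochberg. Fold changes on that scale understate those of low genes. Data were simulated for αKG against DMSO over 20066 rows. A dispersion of 0.001 stood for the spread between DMSO libraries and 0.02 for the pooled spread within groups. Both were set beforehand, alike for both groups, and genes were drawn independently. A shift of many genes together in 1 library was not simulated, so the rates below are a rough guide for these data. With 0.001, 39 of 50 genes at a fold of 0.5 and 18 of 50 at 0.7 were called. With 0.02, 1 and 0 of 50 were called, so a gene without a call may still differ. Of 19866 unchanged rows 29 and 13 were called, 3 and 0 of them with a mean of at least 10. Exon lengths and overlaps came from GENCODE M21, in which 98.95% of rows had identical positions. Promoters came from RefSeq GRCm38.p6. Protein sequences were not used here.

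The members and gene lists were chosen with earlier results of these data known. Named were members past the threshold, the 4 highest and 4 lowest log2 fold changes at a mean of at least 50, the 3 highest and 2 lowest means, 6 members and 6 other genes for their roles, and the gene of smallest p of each list. Since no member passed, the 10 of smallest p were added after their values were seen, as were *Mrpl36*, *Mrpl23*, *Mrps25*, *Mrpl15*, *Yy1*, *Myc* and the neighbouring genes. The same holds for the markers named singly, such as *Tek*, *Flt1*, *Lum* and *Tcf21*. The alternatives numbered 20, of which 3 were added after seeing the data.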

Additional observations from a re-analysis of the deposited data

How the results depend on the processing

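Over all settings with a fit of their own, between 70 and 74 of the 77 mitochondrial ribosomal protein genes were lower in αKG. In the main fit 47.1% of all genes were lower. Leaving out 1 library at a time, the median log2 fold change ran from -0.19 (without αKG replicate 1) to -0.44 (without αKG replicate 3), and the number of members past an adjusted p of 0.05 in limma from 0 to 51 (lower from 0 to 50, higher from 0 to 1). For the pathway genes it ran from 0 to 38. All of these upper counts came without αKG replicate 3, where 7466 genes were called, against 0 to 152 without another library and 759 with all. With all libraries 0 members were called, and 2 were with a mean of at least 10, 1 with libraries scaled to the same total, 2 with a GC and length correction, 1 with protein-coding rows alone and 1 with the same protein-coding total, all of them lower. Of the rows tested, 3.8% were called with all libraries and, for these 5 settings in the same order, 6.5%, 4.6%, 6.1%, 5.3% and 4.3%. The GC and length correction called 2 of 83 pathway genes. At an unadjusted p under 0.05, 37 members were called, 36 lower and 1 higher, and 26 of 83 pathway genes, 22 lower and 4 higher. Of all genes, 12.4% were lower and 15.7% higher at that threshold. Pseudocounts of 0.1 and 10, no variance trend, quantile normalization and limma-voom on estimated reads called 0 members. The cause of these differences was not tested.

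No pairing by replicate number was seen. The distances from each group's mean, compared between libraries of equal number, gave correlations of -0.03, 0.06 and 0.02. αKG replicate 3 stood apart from its group and DMSO replicates 2 and 3 differed by about sampling noise. Pairing may therefore exist without showing in these correlations. With the replicate block 0 members were called and the median stayed at -0.32, while 46 genes were called in all. The GC and length correction with the replicate block called 8 of 77 members, 7 lower and 1 higher, and 2 of 83 pathway genes. It called 8.64% of all rows in either direction. Over 45 genes described singly, 900 values under an alternative were compared, of which 803 kept their direction and side of the threshold, 79 were newly past it and 18 turned sign. The alternatives include the main fit read at an unadjusted p under 0.05, so part of the 79 came from that looser threshold alone. Signs turned for *Mrps18b* (-0.0045 with quantile normalization), *Mrpl42* and *Mrps25* (-0.0557 and -0.0587 with the GC and length correction, with and without the block) and *Mrpl15* (-0.2718 with that correction, with and without the block, -0.013 with the mean of DMSO replicates 2 and 3, -0.0073 scaled to the same total and -0.0015 with limma-voom). Leaving out 1 library gave -0.6166 to 0.117 for *Mrps36*, -0.2406 to 0.0597 for *Tfam*, -0.1689 to 0.0387 for *Mrpl23*, -0.0171 to 0.0538 for *Mrps25* and -0.0318 to 0.0853 for *Mrpl15*. Numbers of genes called in all were 346 with a pseudocount of 0.1, 27 without the trend, 342 with limma-voom, 1220 with the GC and length correction, 1731 with it and the block, and 19 with DMSO replicates 2 and 3 averaged, against 759. Members with few counts, such as *Mrps18c*, carried wide errors.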
